A study of Mus musculus with 12 samples.

Results

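Interferon-stimulated genes are switched on when a cell detects interferon, and many of their proteins block viral RNA or tag other proteins. A set of 41 of them, taken by gene symbol, was followed in nucleus pulposus of mice with and without a deletion of Opa1. Of the 41 symbols, 39 had a row among the 32285 genes of the count table and 33 were among the 15229 genes with enough reads to be tested. Mx1 and Mx2 had no row and were not analysed here.

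Interferons bind receptors at the cell surface, and the attached kinases JAK1 and TYK2 phosphorylate STAT proteins. A complex that holds STAT2 and IRF9 then binds the interferon-stimulated response element in promoters, while the gamma-activated sequence serves mainly the response to interferon-gamma. A low level of these genes is kept up in many tissues without infection, and interferon, cytosolic nucleic acids and IRF family proteins can each raise it.

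The tissue was the gelatinous core of tail discs, dissected from 12-month-old mice of the C57BL/6-129/SvEv background and sequenced as bulk RNA with 1 mouse per library. The 6 Opa1cKO mice had lost Opa1, which encodes a GTPase that fuses inner mitochondrial membranes, from 3 months of age through AcanCre, a Cre made where aggrecan is made, that is in disc and cartilage. The 6 WT mice also received tamoxifen, the agent that activates this Cre, at 100 mg/kg on 3 days, and mice of both genotypes aged for 9 further months. Libraries were made from 50 ng of RNA with 14 PCR cycles after ribosomal RNA depletion, and the series asks what the loss of Opa1 does to an ageing disc.

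Total counts ran from 45657321 to 53261644 in WT and from 37268242 to 56618266 in Opa1cKO. A level of 1 CPM (a count scaled to library size with TMM factors) stood for 37.3 to 56.6 reads. Opa1 lay between 69.3 and 118.3 CPM (median 107.5) in WT and between 30.2 and 47.7 CPM (median 40.8) in Opa1cKO, without overlap. Nucleus pulposus and notochord markers summed to 48177 to 62070 CPM in WT and 46386 to 57675 CPM in Opa1cKO, most of it from Car3, Acan and Cd24a. Of the 15 such markers counted, 13 were tested, while Noto and Car12 had too few reads and the mean of Shh was only 0.679 CPM in WT and 0.925 in Opa1cKO. In 4 libraries the sex-linked reads contradicted the labelled sex: WT 4 was labelled female, and WT 5, WT 6 and Opa1cKO 4 were labelled male. Sex was not balanced between genotypes. By label, WT 5 and WT 6 were the only WT males, and Opa1cKO 5 and Opa1cKO 6 the only Opa1cKO females. By reads, WT 4 was the only WT male, while Opa1cKO 1, 2 and 3 were male. Genotype was tested with labelled sex in the model. The log2 fold change of each called member is also given for the other 8 mice alone, whose reads match their labelled sex. They are called the sex-matched mice for that reason only. Among them WT 1, 2 and 3 are female, Opa1cKO 1, 2 and 3 male, and Opa1cKO 5 and 6 female.

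Among the 33 tested genes, 13 were lower and 1 was higher in Opa1cKO at an adjusted p below 0.05 (edgeR's quasi-likelihood test, adjusted over all tested genes). Over all tested genes, 10.2% were called in either direction, 5.13% lower and 5.1% higher. The members were chosen with earlier results of these data known. The 19 others were not called, and 14 of those had a log2 fold change below 0. The median log2 fold change was -0.47 over the 33 genes and 0.01 over all tested genes, and 27 of 33 (81.8%) lay below 0 against 48.1% of all tested genes. In 6 of the 33 every Opa1cKO library lay below every WT library, a pattern found in 3.64% of all tested genes. The opposite pattern, found in 2.77% of all tested genes, occurred in none of the 33. In bulk tissue, fewer cells that express a gene cannot be told apart from less RNA per cell.

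**Figure D1:**
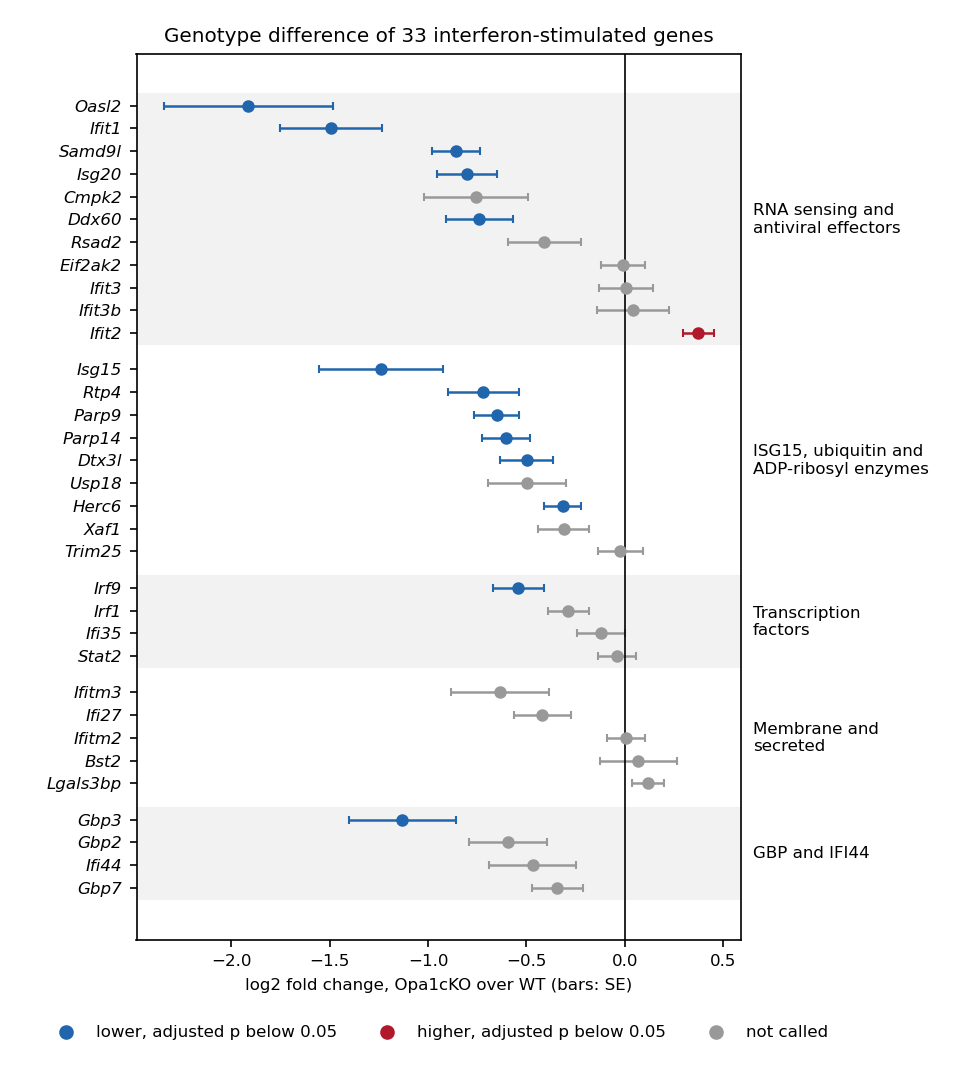
Log2 fold change of each tested interferon-stimulated gene, Opa1cKO over WT, with its standard error as a bar and genes in blocks by role. The 13 genes called lower are blue, Ifit2, the only member called higher, is red, and the 19 not called are grey.

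Without the 4 libraries of contradicted sex, which leaves 3 WT and 5 Opa1cKO mice, 1 of 34 tested members was called lower (Samd9l, log2 fold change -1.10, adjusted p = 0.0209) and none was called higher. With those 8 mice, 2.07% of all tested genes were called, 0.874% lower. The median log2 fold change of the members was -0.49. No WT male was left among those 8 mice. With sex in the model, their fold changes therefore compare WT 1, 2 and 3 with Opa1cKO 5 and 6. With all 12 libraries and sex by reads in the model, 14 of 33 members were lower, beside 5.75% of all tested genes. All 13 members called lower with labelled sex were among those 14. Labelled females alone gave 2 lower calls, beside 0.842% of all tested genes, and labelled males alone gave 3, beside 1.62%. The labelled-male fit is no comparison within males, since both of its WT mice, WT 5 and WT 6, and Opa1cKO 4 read as female, and WT 4 among the labelled females read as male.

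The promoters are shown first because interferon is known to act on many genes of this class through an element in the promoter. RefSeq promoters of the GRCm38.p6 assembly, each 250 bases before to 50 bases after a transcript start, were found for 33 of the 41 symbols. The letters GAAANNGAAA, the core of the interferon-stimulated response element, were searched on both strands, where the reverse reads TTTCNNTTTC. A match was present in 16 of the 33 (48.5%) and in 1079 of 27025 genes with a promoter (3.99%). The gamma-activated letters TTCNNNGAA, which read the same on both strands, matched in 9 of the 33 (27.3%) and in 9.55% of all genes. Stretches are printed 5′ to 3′ on the strand of the gene, with matches to the first motif in capitals. The first 4 genes were called lower in Opa1cKO and the last 2 were not called.
Ifit1, chr19:34640770-34640828, plus strand: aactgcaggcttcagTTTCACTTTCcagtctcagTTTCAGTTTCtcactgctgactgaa
Isg15, chr4:156200860-156200911, minus strand: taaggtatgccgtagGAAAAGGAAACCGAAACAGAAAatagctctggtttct
Ddx60, chr8:61928019-61928086, plus strand: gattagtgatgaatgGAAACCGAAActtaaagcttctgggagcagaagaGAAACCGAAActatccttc
Gbp3, chr3:142559984-142560025, plus strand: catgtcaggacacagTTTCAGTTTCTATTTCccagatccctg
Ifit3, chr19:34583358-34583431, plus strand: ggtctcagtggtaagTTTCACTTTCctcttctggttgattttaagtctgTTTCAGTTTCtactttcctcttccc
Bst2, chr8:71537572-71537617, minus strand: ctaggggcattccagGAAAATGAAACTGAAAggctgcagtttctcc

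Matches overlap each other in Isg15, where 3 run together, and in Gbp3 and Bst2, where 2 do. The printed stretch of Ifit3 is identical in its near copy Ifit3b (chr19:34607754-34607827). Ifit1 and Ifit3 carry the same pair of 10-base matches, spaced differently, although Ifit1 was lower in Opa1cKO and Ifit3 was not called. Among members with a promoter, a response-element match was present in 4 of the 10 called lower and in 10 of the 17 tested but not called. Ifit2, called higher, had no such match in its window and had 1 gamma-activated match. A match is a string of letters in this window and was not tested for binding.

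The antiviral effectors that bind or destroy foreign RNA held the largest decreases and the only increase. Of 11 tested, 5 were lower (Ifit1, Oasl2, Isg20, Ddx60 and Samd9l), beside 5.13% of all tested genes. Higher was 1 (Ifit2), beside 5.1% of all tested genes, and the median log2 fold change of the 11 was -0.74. The 4 IFIT genes, whose proteins bind RNA and hold back its translation, lie next to each other on chromosome 19 between positions 34550694 (Ifit2) and 34650009 (Ifit1) of GRCm38, and they differed in direction. Ifit1 ranged from 8.45 to 22.2 CPM (median 10.7) in WT and from 3.09 to 7.81 CPM (median 4.69) in Opa1cKO. The genotypes did not overlap, and WT 6 was far above the other WT mice. The log2 fold change of Ifit1 was -1.49 (SE 0.261, adjusted p = 0.00331). With the 8 sex-matched mice alone, Ifit1 gave -1.42 (adjusted p = 0.0619).

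Ifit2 ranged from 62.9 to 79.1 CPM (median 70.4) in WT and from 76.3 to 102.8 CPM (median 87.3) in Opa1cKO. The highest WT mouse, WT 4, overlapped the lowest Opa1cKO mouse, and the log2 fold change was 0.37 (SE 0.0782, adjusted p = 0.00887). In the 8 sex-matched mice the Ifit2 value was 0.46 (adjusted p = 0.101). Ifit3 ranged from 55.7 to 80.6 CPM in WT and from 53.4 to 90.9 CPM in Opa1cKO, with a log2 fold change of 0.01 (adjusted p = 0.981). Its near copy Ifit3b had a log2 fold change of 0.04 (adjusted p = 0.923). These near copies cannot be read apart with certainty, since 51.2% of the 50-base words of Ifit3 also occur in other genes, all of them in Ifit3b. For Ifit1 the shared part was 7.13%, and for Ifit2 it was 0.

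The ratio of Ifit1 to Ifit2 within a library, taken from TPM (a transcript level scaled by length and library size), ran from 0.179 to 0.462 (median 0.220) in WT and from 0.0512 to 0.123 (median 0.0790) in Opa1cKO. This ratio restates the opposite differences of the 2 genes within each mouse. The ratio of Ifit3 to Ifit2 overlapped, with 1.75 to 2.67 in WT and 1.35 to 2.18 in Opa1cKO.

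**Figure D2:**
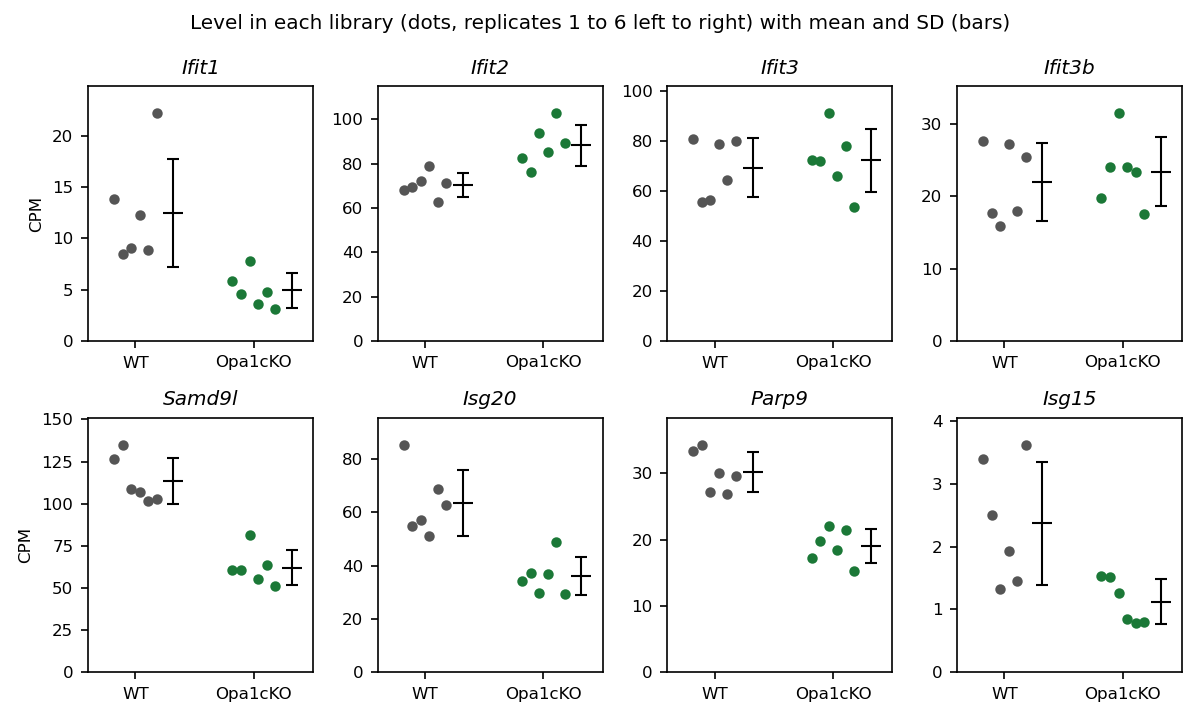
CPM of 8 interferon-stimulated genes in each library, with WT in grey and Opa1cKO in green, replicates 1 to 6 from left to right, and mean and SD as bars. Ifit1, Samd9l, Isg20 and Parp9 show no overlap between genotypes, Ifit2 is higher in Opa1cKO with 1 WT mouse inside its range, and Ifit3 and Ifit3b overlap broadly.

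Samd9l, a large cytoplasmic protein that restrains translation and poxvirus growth, had the smallest adjusted p of the set. It ranged from 101.9 to 135 CPM (median 107.9) in WT and from 51.2 to 81.3 CPM (median 60.8) in Opa1cKO. No mouse overlapped, and the log2 fold change was -0.86 (SE 0.122, adjusted p = 0.000787). Samd9l stood at -1.10 (adjusted p = 0.0209) in the 8 sex-matched mice. Isg20, an exonuclease that degrades single-stranded RNA, ranged from 51.0 to 85.4 CPM (median 60.1) in WT and from 29.5 to 49.0 CPM (median 35.5) in Opa1cKO. Its ranges also did not overlap, with a log2 fold change of -0.80 (SE 0.152, adjusted p = 0.00532). In the 8 sex-matched mice the Isg20 value was -0.75 (adjusted p = 0.156).

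Ddx60, an antiviral helicase, ranged from 8.24 to 14.5 CPM (median 12.4) in WT and from 5.19 to 9.36 CPM (median 7.13) in Opa1cKO. The lowest WT mouse, WT 3, lay inside the Opa1cKO range, and the log2 fold change was -0.74 (SE 0.169, adjusted p = 0.0135). With the 8 sex-matched mice alone, Ddx60 gave -0.42 (adjusted p = 0.418). Oasl2, of the oligoadenylate synthetase family that senses double-stranded RNA, was the faintest tested member, with 21 to 98 reads per WT library and 6 to 27 per Opa1cKO library. Its level ran from 0.456 to 2.05 CPM in WT and from 0.122 to 0.547 CPM in Opa1cKO, with a log2 fold change of -1.91 (SE 0.429, adjusted p = 0.0124). Oasl2 stood at -1.41 (adjusted p = 0.304) in the 8 sex-matched mice. It reached the read minimum of the filter in 6 WT and 5 Opa1cKO libraries.

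The other 3 effectors were not called. Rsad2 (viperin), which turns a nucleotide into a chain terminator of viral RNA, had a log2 fold change of -0.41 (adjusted p = 0.191). Its neighbour Cmpk2, a mitochondrial nucleotide kinase, had -0.76 (adjusted p = 0.0873). Both were highest in WT 6, at 28.4 CPM for Rsad2 and 8.53 CPM for Cmpk2. Eif2ak2, which encodes the double-stranded RNA kinase PKR, had a log2 fold change of -0.01 (adjusted p = 0.969).

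A mixed group held Isg15, ubiquitin and ADP-ribosyl enzymes, Rtp4 and Xaf1, and is not the ISG15 pathway alone. ISG15 is a ubiquitin-like protein that is joined to other proteins after interferon. Of 9 tested genes in this group, 6 were lower (beside 5.13% of all tested genes) and none was higher (beside 5.1%). The 6 were Isg15, Herc6, Parp9, Parp14, Dtx3l and Rtp4, and the median log2 fold change of the group was -0.50. Isg15 itself ranged from 1.32 to 3.62 CPM (median 2.21) in WT and from 0.780 to 1.53 CPM (median 1.06) in Opa1cKO, on 61 to 179 and 29 to 75 reads. WT 3 and WT 5 lay inside the Opa1cKO range, and the other 4 WT mice lay above it. The log2 fold change of Isg15 was -1.24 (SE 0.317, adjusted p = 0.0245). In the 8 sex-matched mice the Isg15 value was -1.61 (adjusted p = 0.0838).

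Herc6, the main ligase that attaches ISG15 in mice, ranged from 19.3 to 26.0 CPM (median 21.8) in WT and from 16.1 to 18.7 CPM (median 17.6) in Opa1cKO. The ranges did not overlap, but the difference was small, at a log2 fold change of -0.32 (SE 0.0923, adjusted p = 0.0437). With the 8 sex-matched mice alone, Herc6 gave -0.31 (adjusted p = 0.221). The call was lost when any 1 of 8 libraries was left out, and 23.8% of the 50-base words of Herc6 also occur in the overlapping gene Gm45193. Usp18, the protease that removes ISG15 and restrains the interferon receptor, had a log2 fold change of -0.50 (adjusted p = 0.134). Trim25, a ubiquitin ligase of the RIG-I pathway, had -0.02 (adjusted p = 0.926).

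Parp14, Dtx3l and Parp9, neighbours on chromosome 16 between positions 35832874 and 35972605, were all lower. Parp9 and Parp14 are members of the ADP-ribosyltransferase family, and the DTX3L ubiquitin ligase works as a complex with PARP9. Parp9 ranged from 26.9 to 34.3 CPM (median 29.8) in WT and from 15.3 to 22.1 CPM (median 19.1) in Opa1cKO, with a log2 fold change of -0.65 (SE 0.113, adjusted p = 0.00285). Parp9 stood at -0.78 (adjusted p = 0.069) in the 8 sex-matched mice. Parp14 ranged from 11.8 to 15.3 CPM (median 14.1) in WT and from 7.02 to 10.6 CPM (median 9.57) in Opa1cKO, with a log2 fold change of -0.61 (SE 0.123, adjusted p = 0.00738). In the 8 sex-matched mice the Parp14 value was -0.60 (adjusted p = 0.159). In both genes every Opa1cKO mouse lay below every WT mouse. Dtx3l ranged from 33.2 to 51.1 CPM (median 40.9) in WT and from 22.1 to 33.9 CPM (median 29.3) in Opa1cKO, with WT 5 just inside the Opa1cKO range, and its log2 fold change was -0.50 (adjusted p = 0.0296). With the 8 sex-matched mice alone, Dtx3l gave -0.67 (adjusted p = 0.127). Parp9 and Dtx3l run in opposite directions and share 458 exon bases, where reads can be assigned only if counting used strand. Whether it did was not given.

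The group also holds Rtp4, a receptor transport protein, and Xaf1, a partner of the apoptosis inhibitor XIAP. Rtp4 ranged from 10.02 to 18.7 CPM (median 15.1) in WT and from 6.88 to 11.8 CPM (median 8.45) in Opa1cKO, with a log2 fold change of -0.72 (adjusted p = 0.0233). Rtp4 stood at -0.95 (adjusted p = 0.106) in the 8 sex-matched mice. Its ranges overlapped through Opa1cKO 3. Xaf1 had a log2 fold change of -0.31 (adjusted p = 0.15).

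Of the 4 tested transcription factors and their partners, 1 was lower (beside 5.13% of all tested genes), and the median log2 fold change was -0.20. Irf9, the DNA-binding subunit of the complex with STAT2, ranged from 13.9 to 21.5 CPM (median 16.7) in WT and from 10.02 to 15.4 CPM (median 12.4) in Opa1cKO. WT 2 and WT 3 lay inside the Opa1cKO range, and the log2 fold change was -0.54 (SE 0.131, adjusted p = 0.0189). In the 8 sex-matched mice the Irf9 value was -0.58 (adjusted p = 0.163). Its partner Stat2 had a log2 fold change of -0.04 (adjusted p = 0.844). Irf1, an early factor of the interferon-gamma response, had -0.29 (adjusted p = 0.101), and Ifi35, a cytoplasmic adaptor, had -0.12 (adjusted p = 0.572).

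None of the 5 membrane and secreted members was called, beside 10.2% of all tested genes, and their median log2 fold change was 0.00. Ifitm2 and Ifitm3, which stop enveloped viruses at the endosome membrane, had log2 fold changes of 0.00 (adjusted p = 0.982) and -0.63 (adjusted p = 0.131). The Ifitm2 value is uncertain, since it shares 40.9% of its exon bases with the overlapping gene Gm45717. Ifi27, a small mitochondrial and nuclear envelope protein, had -0.42 (adjusted p = 0.0807), and Opa1cKO 6 stood at 55.7 CPM below the other Opa1cKO mice. Bst2, or tetherin, which holds budding viruses at the cell surface, had 0.07 (adjusted p = 0.867), and Lgals3bp, a secreted glycoprotein, had 0.12 (adjusted p = 0.399).

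Among the guanylate-binding proteins, GTPases that coat intracellular pathogens, Gbp3 was lower and Gbp2 and Gbp7 were not called, although the 3 genes lie together on chromosome 3. Gbp3 ranged from 5.08 to 10.7 CPM (median 6.78) in WT and from 1.62 to 5.43 CPM (median 3.31) in Opa1cKO. Opa1cKO 5 alone reached the WT range, and the log2 fold change was -1.13 (SE 0.272, adjusted p = 0.0182). With the 8 sex-matched mice alone, Gbp3 gave -0.82 (adjusted p = 0.341). Gbp2 had a log2 fold change of -0.59 (adjusted p = 0.0755), Gbp7 had -0.34 (adjusted p = 0.110), and Ifi44, a cytoplasmic antiviral protein, had -0.47 (adjusted p = 0.210).

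In all, 6 members in the table had too few reads to test. The oligoadenylate synthetases and their relative were barely read, with Oas1a at 15 reads over the 6 WT libraries and 1 over the 6 Opa1cKO libraries, Oas3 at 87 and 50, Oas2 at 0 and 6, and Oasl1 at 0 and 3. A count of 0 over the WT libraries allows a level of up to 0.0104 CPM (3 reads), counting error only. Sp100, a nuclear body protein, had 30 and 26 reads, and Epsti1 had 2 and 1. Oas1a could not be told apart from Oas1g over 57.6% of its 50-base words.

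On the length-scaled TPM scale the 33 tested members spanned a wide range of levels in WT, from a mean of 0.814 for Oasl2 to 330 for Ifitm2. Ifitm2, Ifi27 (324), Ifit3 (181), Isg20 (155), Ifitm3 (130) and Lgals3bp (110) were the 6 members at 100 TPM or more in WT, and of these Isg20 alone was called lower. The median WT level was 15.2 TPM for the 13 members called lower and 41.1 TPM for the 19 not called. Across the 33 members, Spearman's rho between WT TPM and log2 fold change was 0.46, a description over genes that share the same 12 libraries.

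**Figure D3:**
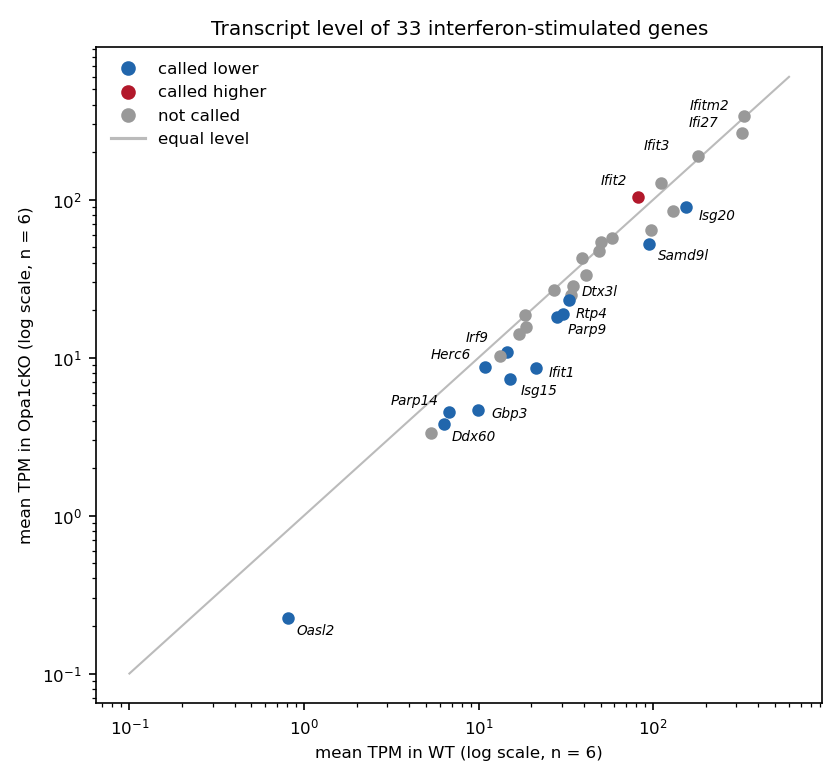
Mean TPM of the 33 tested interferon-stimulated genes in Opa1cKO against WT, both axes on a log scale, with a grey line of equal level. Genes called lower (blue) lie below the line from Oasl2 at 0.814 TPM in WT up to Isg20 at 155, while Ifitm2, Ifi27 and Ifit3, the members with the highest WT levels, were not called.

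The members differed between mice of the same genotype as well. Opa1cKO 6 was the lowest Opa1cKO library for 25 of the 33 genes and the lowest of all 12 libraries for 20, while it was lowest in its genotype for 20.9% of all tested genes. Its median deviation from the mean of its genotype was -0.34 on the log2 scale over the members and 0.01 over all tested genes. WT 6 was the highest WT library for 12 members (14.6% of all tested genes) and WT 1 for 9 (20.7% of all tested genes), whereas WT 3 was the lowest for 16 (16.5% of all tested genes). Within WT, the median Pearson correlation over the 528 pairs of members was 0.38, and within Opa1cKO it was 0.45, each over 6 libraries and given as a description. The same value over pairs of other genes was not computed. Whether the members vary together more than other genes do was therefore not tested.

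Leaving out WT 6 lowered the number of members called lower from 13 to 5 (Ifit1, Isg20, Parp9, Parp14 and Samd9l), and leaving out Opa1cKO 6 lowered it to 8. The share of all tested genes called lower fell as well, from 5.13% to 3.32% without WT 6 and 3.23% without Opa1cKO 6. The count of members was 15 without Opa1cKO 5, beside 5.71% of all tested genes. Without WT 6 the calls of Oasl2, Ddx60, Isg15, Herc6, Dtx3l, Rtp4, Irf9 and Gbp3 were lost. Without Opa1cKO 6 those of Isg15, Herc6, Dtx3l, Rtp4 and Irf9 were lost. Dtx3l also lost its call without WT 1 or Opa1cKO 2, and Isg15 without Opa1cKO 5. Ifit1, Ifit2, Isg20, Samd9l, Parp9 and Parp14 kept their calls whichever single library was left out.

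**Figure D4:**
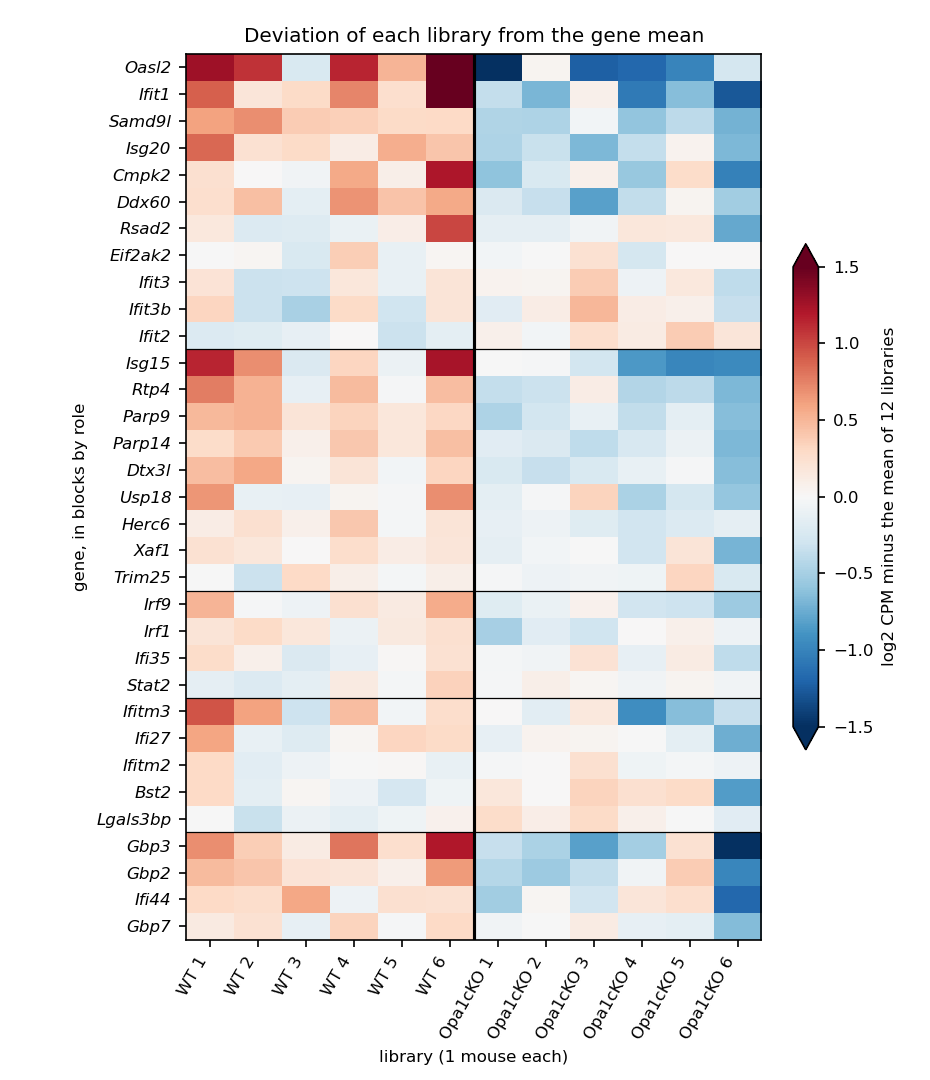
Log2 CPM of each tested interferon-stimulated gene in each library, minus that gene's mean over the 12 libraries, with WT on the left and Opa1cKO on the right. Opa1cKO 6 is the lowest of the 12 libraries for 20 of 33 genes, WT 6 is the highest for 11, and Ifit2 shows the reverse colour of Ifit1 in most libraries.

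Signalling genes upstream of the members were called at about the share of all genes. Of 29 listed receptors, kinases, STAT and IRF factors and feedback inhibitors, 26 were tested, 1 was lower (3.85%, beside 5.13% of all tested genes), 1 was higher (beside 5.1%) and the median log2 fold change was 0.08. Ifngr1, a chain of the interferon-gamma receptor, was 39.6 ± 1.74 CPM (SD, n = 6) in WT and 33.1 ± 2.30 CPM in Opa1cKO (log2 fold change -0.25, adjusted p = 0.0480), a call lost without any 1 of 11 libraries. Irf7, the factor that amplifies type I interferon production and is itself interferon-stimulated, was 50.4 ± 24.4 CPM in WT and 153 ± 79.6 CPM in Opa1cKO (log2 fold change 1.52, SE 0.379, adjusted p = 0.0278). The Irf7 call was lost without any 1 of 5 libraries, and in the 8 sex-matched mice (2.09, adjusted p = 0.0828).

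Transcripts of the interferons themselves were barely read. Of 21 ligand genes none had enough reads to test, and 15, among them Ifnb1, had no read in any library. All ligand genes together had 28 reads in the 6 WT libraries and 16 in the 6 Opa1cKO libraries.

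A further list of 109 interferon-stimulated genes outside the 41 had 75 tested, of which 11 were lower (14.7%, beside 5.13% of all tested genes) and 2 were higher (beside 5.1%), with a median log2 fold change of -0.14. This list too was chosen with earlier results of these data known, and comes from the same 12 libraries. The calls of smallest p were in 3 faint genes: Gbp4 (log2 fold change -2.16, adjusted p = 0.00438), Zbp1, a sensor of Z-form nucleic acids (-2.16, adjusted p = 0.00646), and Tgtp1, a GTPase induced by interferon (-2.35, adjusted p = 0.00732). Over the 6 Opa1cKO libraries Gbp4 had 105 reads, Zbp1 31 and Tgtp1 72, against 381, 151 and 420 in WT. The filter's cutoff was 0.212 CPM. In Opa1cKO the lowest library was at 0.117 CPM for Gbp4 and 0.0408 CPM for Zbp1 and Tgtp1, and the median of Zbp1 was 0.0991 CPM. In WT the lowest library was at 1.00 CPM for Gbp4, 0.288 CPM for Zbp1 and 0.932 CPM for Tgtp1. All 3 were thus tested because of their WT level, and they are counted among the 11 lower. Gbp4 kept its call in the 8 sex-matched mice (adjusted p = 0.0229), and Zbp1 and Tgtp1 did not (0.355 and 0.298). Smaller decreases were found in Tor1aip1 (-0.39, adjusted p = 0.0105), Irgm2 (-0.67, adjusted p = 0.0159) and Ifih1, the RNA sensor MDA5 (-0.57, adjusted p = 0.0214). The increases were in Ifi30, a lysosomal thiol reductase (0.66, adjusted p = 0.00683), and Samhd1, a nucleotide hydrolase (0.34, adjusted p = 0.0228). Without WT 6 the calls of Tor1aip1, Irgm2, Ifih1 and Samhd1 were lost, as were those of Irgm2 and Ifih1 without Opa1cKO 6 and of Samhd1 without WT 5. These 4 and Ifi30 were not called in the 8 sex-matched mice.

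Immune cells also carry these genes, and some of their markers differed between the genotypes. Of 18 macrophage markers 7 were tested, 3 were lower (beside 5.13% of all tested genes) and 1 was higher (beside 5.1%). Csf1r, the receptor for macrophage growth factor, was 116 ± 34.7 CPM (SD, n = 6) in WT and 66.2 ± 8.85 CPM in Opa1cKO (log2 fold change -0.88, adjusted p = 0.00468). Cd163, a scavenger receptor for haemoglobin, was 5.65 ± 1.57 CPM in WT and 0.319 ± 0.197 CPM in Opa1cKO, without overlap (log2 fold change -3.98, adjusted p = 4.45e-05). Mpeg1, a pore-forming protein, was 2.37 ± 0.356 and 1.25 ± 0.343 CPM (log2 fold change -0.97, adjusted p = 0.0138). Cd68 was 15.3 ± 2.97 CPM in WT and 38.6 ± 6.51 CPM in Opa1cKO (log2 fold change 1.28, adjusted p = 0.000152). Cd163 and Cd68 kept their calls in the 8 sex-matched mice, and Csf1r and Mpeg1 did not. The summed macrophage markers ran from 120 to 209 CPM in WT and from 108 to 126 CPM in Opa1cKO (exact permutation p = 0.0195, two-sided, adjusted p = 0.107 over 11 sums). Most of this sum came from Csf1r and then Cd68, which differed in opposite directions, so it mainly restates those genes.

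Levels of the macrophage markers differed widely, and none was at 0 in every library. Cd14 was 9.19 ± 2.41 CPM in WT and 8.10 ± 1.83 CPM in Opa1cKO and was not called. Adgre1 reached at most 0.177 CPM in WT and 0.0538 CPM in Opa1cKO, and C1qa at most 0.0867 and 0.0468 CPM. Ptprc, carried by all leukocytes, had a median of 0.119 CPM in WT and 0.20 CPM in Opa1cKO. None of 15 lymphocyte markers had enough reads to test, and their sum reached at most 0.752 CPM in WT and 0.562 CPM in Opa1cKO, with Cd3d and Cd4 at 0 in every library. Of 9 plasmacytoid and dendritic cell markers 1 was tested and not called, and Xcr1 and Cd209a were at 0. None of the tested neutrophil (3), erythroid (1), endothelial (4), skeletal muscle (7), keratinocyte (4) or annulus and fibroblast (7) markers was called. Of 13 nucleus pulposus and notochord markers, 2 were lower (15.4%, beside 5.13% of all tested genes). Summed levels were higher in Opa1cKO for keratinocyte (exact permutation p = 0.013, adjusted p = 0.107) and endothelial markers (exact permutation p = 0.0303, adjusted p = 0.111) before adjustment only. The part of macrophages and of other cells in the differences among the interferon-stimulated genes was not tested.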

How the data were processed

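Read counts of 12 libraries were used as the authors deposited them, as whole numbers per gene. The genome was mm10 and the aligner STAR 2.7.11b, per the submitters' processing notes. Which counter, annotation and strand option were used is not given in the sources here. The authors also deposited a TPM table, used for levels between genes and as an alternative unit. No column was left without a sample.

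Counts were tested with edgeR 4.0.16 in R 4.3.3: TMM factors, filterByExpr by genotype (minimum count 10), a robust quasi-likelihood fit on genotype with labelled sex, and Benjamini-Hochberg adjustment over 15229 genes, with calls at an adjusted p below 0.05. CPM values use TMM factors. Summed marker levels were compared by an exact permutation test over libraries. Each library is 1 mouse, so p-values measure the spread between mice, and PCR copies cannot be told from molecules. No 2 libraries agreed within sampling noise (smallest chi-square per degree of freedom 31.1). The fit was tested on simulated counts.

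All 41 members are named, with, from each interferon list, up to 6 called genes per direction by p, and, from each marker list, up to 3 by mean CPM. Cd163, Mpeg1, Adgre1, C1qa, Ptprc and markers at 0 were named after their values were seen, as was Ifnb1. Some items that met the rule are counted but not reported here. Members and lists were chosen with earlier results of these data known. Gene positions come from GENCODE M21 (GRCm38) and promoters from RefSeq (GRCm38.p6). Alternatives were other sex terms, the replicate number as a block, DESeq2 1.42.0, voom in limma 3.58.1, scalings, filters, TPM with limma, thresholds, each labelled sex and each library left out.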

Additional observations from a re-analysis of the deposited data

Results flagged for a closer look

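In 7 of 96 groups of 6 libraries checked, over the members and the other genes checked with them, a single library stood apart from the rest of its genotype by more than Dixon's 95% limit. Chance gives about 1 such group in 20. Rsad2 was 28.4 CPM in WT 6 against 12.3 to 15.9 CPM in the other WT mice, and Eif2ak2 was 38.4 CPM in WT 4 against 25.5 to 30.3 CPM. Ifitm2 was 58.5 CPM in WT 1 against 42.4 to 48.1 CPM, and 56.0 CPM in Opa1cKO 3 against 45.0 to 47.5 CPM in the other Opa1cKO mice. Trim25 was 89.7 CPM in Opa1cKO 5 against 61.0 to 70.6 CPM. In Opa1cKO 6, Bst2 was 4.42 CPM against 7.97 to 9.97 CPM and Ifi27 was 55.7 CPM against 83.6 to 95.7 CPM. None of these genes was called between the genotypes.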

How the results depend on the processing

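Of the members, 13 were called lower and 1 higher, beside 5.13% and 5.1% of all tested genes. The count of lower members was 5 at an adjusted p below 0.01, 1 without the 4 libraries of contradicted sex, 2 in labelled females alone, 3 in labelled males alone and 7 with the replicate block. It ran from 5 to 15 when single libraries were left out, beside 3.23% to 6.56% of all tested genes. The count of higher members was 0 with the replicate block, without the contradicted libraries and in each labelled sex alone. The shared replicate numbers do not pair the mice: deviations of same-numbered mice correlated between -0.22 and 0.04. Fewer mice enter the fits of 8 or fewer libraries, and the cause of the other changes was not tested. DESeq2 called 17 of 35 tested members lower, beside 6.59% of all genes it tested, and limma-voom 12 of 33, beside 5.36%. Other scalings, filters, TPM pseudocounts and sex terms gave between 12 and 14, beside 3.14% to 6.81% of all tested genes. No member called in the full set changed sign under any of the up to 27 alternatives in which it was tested, most of which share the libraries that gave the calls. Over all genes, 137 were lower and 188 higher without the contradicted libraries, 133 and 167 in labelled females, 258 and 161 in labelled males, and 418 and 351 with the replicate block. At 1 CPM a value rests on 37.3 to 56.6 reads, which limits Oasl2, Isg15 and the 6 untested members most.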

Other observations

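Of the other interferon-stimulated genes called lower, 5 fell outside the naming rule and were picked after their values were seen, to complete that count. The neighbours Apol9a and Apol9b, of the apolipoprotein L family, had log2 fold changes of -0.54 (adjusted p = 0.0375) and -0.82 (adjusted p = 0.0226). Sequence shared by these 2 genes was not examined. Apol9a was 68.0 ± 11.8 CPM (SD, n = 6) in WT and 48.1 ± 9.36 CPM in Opa1cKO, and Apol9b was 24.7 ± 6.91 CPM in WT and 14.1 ± 3.11 CPM in Opa1cKO. Tlr3, the endosomal receptor for double-stranded RNA, was 12.9 ± 2.66 CPM in WT and 8.63 ± 0.964 CPM in Opa1cKO (log2 fold change -0.57, adjusted p = 0.0284). Trim30a was 3.21 ± 0.474 CPM in WT and 1.62 ± 0.597 CPM in Opa1cKO (-0.97, adjusted p = 0.0365). Ly6a, the stem cell antigen Sca-1, was 38.8 ± 7.37 CPM in WT and 20.3 ± 8.08 CPM in Opa1cKO (-0.94, adjusted p = 0.0451). Socs3, a feedback inhibitor of cytokine signalling, was 40.6 ± 48.5 CPM in WT and 156 ± 88.4 CPM in Opa1cKO (log2 fold change 2.04, adjusted p = 0.0631) and was not called.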
